A study of Mus musculus with 17 samples.

Results

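The 49 genes described here encode the proteins that copy DNA in S phase, with the nucleotide enzymes, histone chaperones and E2F and cyclin E regulators that act at the same point of the cell cycle. They were taken from a list of 49 symbols, with the probe set of the highest mean kept for each gene, and all 49 were among the 19938 genes measured by a probe set that names 1 gene only. The level is the deposited log2 intensity of the probe set, and a difference is a difference of group means on that log2 scale. Pancreatic islets of untreated 2-month-old mice were profiled on 17 arrays. The 3 knockout genotypes were Men1flf RIP-Cre (3 arrays), Rbp2flf RIP-Cre (4 arrays) and Men1flf Rbp2flf RIP-Cre (4 arrays), beside RIP-Cre without a floxed gene (3 arrays) and wt (3 arrays). RIP-Cre drives Cre recombinase from the rat insulin promoter, so that the floxed gene is removed in beta cells, and the other cells of an islet keep it. All groups but wt carry this transgene. The labels give repeat numbers but do not state that each repeat came from its own mouse, so a p-value here reflects only how much the arrays of a group varied.

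Before S phase, the origin recognition complex, Cdc6 and Cdt1 load the MCM helicase onto origins of replication, and geminin blocks reloading later in the cycle. Cdc45 and GINS then join MCM to form the active helicase, primase and the polymerases copy the strands, and the clamp PCNA, its loader RFC and the single-strand binding protein RPA serve the fork. Many of these genes are transcribed through E2F factors, which the retinoblastoma protein holds in check until cyclin E and its kinase act. Most adult beta cells are outside the cell cycle. Men1 encodes menin, a tumour suppressor of endocrine cells that works with a histone H3 lysine methyltransferase complex. Rbp2, whose official symbol is Kdm5a, encodes a demethylase of the same lysine and was first found as a retinoblastoma-binding protein.

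Promoter sequence was read from RefSeq (build GRCm38.p6) in windows that span the annotated start of each gene, and 40 of the 49 genes had 1 or more windows. The windows of 5 genes are printed. Pcna and Rrm1 were chosen because they were higher on all knockout arrays than on any control array. How many of all genes separate in this way was not counted. Mcm2, Mcm3 and Mcm6 are the MCM genes with a window among those that rose in Men1flf Rbp2flf RIP-Cre islets. Capitals mark the searched letters on either strand, namely the E2F-type words TTTCCCGC, TTTGGCGC, TTTCGCGC and TTTGCCGC, which may overlap, and CCAAT, the core of the box bound by the factor NF-Y.
Pcna, chr2:132253131-132253430, minus strand: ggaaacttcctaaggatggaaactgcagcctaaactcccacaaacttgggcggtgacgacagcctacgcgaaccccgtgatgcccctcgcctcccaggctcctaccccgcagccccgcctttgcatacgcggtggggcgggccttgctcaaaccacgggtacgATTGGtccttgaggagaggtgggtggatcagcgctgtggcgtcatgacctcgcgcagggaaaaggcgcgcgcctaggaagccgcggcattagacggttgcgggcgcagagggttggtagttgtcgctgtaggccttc
Rrm1, chr7:102441445-102441744, plus strand: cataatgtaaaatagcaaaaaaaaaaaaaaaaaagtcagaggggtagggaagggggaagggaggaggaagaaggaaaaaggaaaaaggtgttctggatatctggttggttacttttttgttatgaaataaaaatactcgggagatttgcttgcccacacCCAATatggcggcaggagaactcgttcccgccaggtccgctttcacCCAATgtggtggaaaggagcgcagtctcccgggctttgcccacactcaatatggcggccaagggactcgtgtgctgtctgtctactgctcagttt
Mcm2, chr6:88898731-88899030, minus strand: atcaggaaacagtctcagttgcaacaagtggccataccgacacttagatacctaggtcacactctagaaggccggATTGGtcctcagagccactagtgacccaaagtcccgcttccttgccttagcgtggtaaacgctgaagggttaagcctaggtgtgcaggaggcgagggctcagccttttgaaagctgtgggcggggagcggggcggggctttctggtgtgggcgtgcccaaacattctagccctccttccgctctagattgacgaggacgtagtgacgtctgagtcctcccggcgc
Mcm3, chr1:20820263-20820562, minus strand: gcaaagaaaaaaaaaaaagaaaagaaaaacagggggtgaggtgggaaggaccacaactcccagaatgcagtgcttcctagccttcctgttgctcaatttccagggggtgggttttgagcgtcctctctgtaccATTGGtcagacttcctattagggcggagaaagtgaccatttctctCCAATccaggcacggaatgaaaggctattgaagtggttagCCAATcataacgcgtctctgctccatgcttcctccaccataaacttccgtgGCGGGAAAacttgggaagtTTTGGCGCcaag
Mcm6, chr1:128359656-128359955, minus strand: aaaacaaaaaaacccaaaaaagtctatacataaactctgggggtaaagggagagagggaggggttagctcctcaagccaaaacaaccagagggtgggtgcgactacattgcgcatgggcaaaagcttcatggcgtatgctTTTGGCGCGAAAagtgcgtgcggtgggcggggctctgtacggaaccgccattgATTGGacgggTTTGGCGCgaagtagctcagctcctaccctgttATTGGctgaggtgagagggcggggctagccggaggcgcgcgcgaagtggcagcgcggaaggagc

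The Mcm6 window held 3 E2F-type words, starting at -110, -106 and -47 from the annotated start, and the one at -110 overlaps the one at -106. Mcm3 held 2, downstream of its start at 19 and 38. None of these exact words was in the windows of Mcm2, Pcna and Rrm1, and CCAAT was found at 1 place in Mcm2, 1 place in Pcna and 2 places in Rrm1. Orc1, whose window is not printed, was lower on all knockout arrays than on any control array. Its window held 1 E2F-type word, at -27, and CCAAT at 2 places. Over the gene set, 14 of 47 windows (29.8%) held an E2F-type word, against 2.26% of all 32851 windows in the table. CCAAT was in 28 of the 47 windows (59.6%), against 37.4% of all windows. By role, an E2F-type word was present for 4 of 6 MCM genes with a window, 3 of 5 licensing genes and 3 of 6 polymerase genes, and for none of the 5 nucleotide supply genes or the 2 chromatin assembly genes. These matches describe the letters in the windows and show no binding.

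The targeted genes were examined first. Men1 was 8.14, 8.43 and 8.42 in Men1flf RIP-Cre islets, 10.24, 10.05, 10.11 and 10.09 in Rbp2flf RIP-Cre islets, 8.87, 8.54, 8.64 and 8.46 in Men1flf Rbp2flf RIP-Cre islets, 9.31, 9.49 and 9.38 in RIP-Cre islets and 9.25, 9.45 and 9.31 in wt islets. It was lower by limma in Men1flf RIP-Cre islets than in RIP-Cre islets, by -1.06 ± 0.11 (SE; limma adjusted p = 3.08e-05), and in Men1flf Rbp2flf RIP-Cre islets, by -0.77 ± 0.11 (SE; limma adjusted p = 0.000558). In Rbp2flf RIP-Cre islets its probe set was higher, by 0.73 ± 0.11 (SE; limma adjusted p = 0.00359). Kdm5a was 9.50, 9.39 and 9.44 in Men1flf RIP-Cre islets, 9.18, 9.02, 9.01 and 8.95 in Rbp2flf RIP-Cre islets, 9.39, 9.07, 9.39 and 9.10 in Men1flf Rbp2flf RIP-Cre islets, 9.37, 9.31 and 9.09 in RIP-Cre islets and 9.20, 9.11 and 9.42 in wt islets. The Men1flf RIP-Cre arrays were above all RIP-Cre arrays, and the other groups overlapped. The Kdm5a difference was -0.22 ± 0.11 (SE; limma adjusted p = 0.148) in Rbp2flf RIP-Cre and -0.02 ± 0.11 (SE; limma adjusted p = 0.896) in Men1flf Rbp2flf RIP-Cre islets, neither of which passed the test. Whether its probes lie in the deleted exons is not given in the sources used here, so this probe set does not check the Rbp2flf label.

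All groups showed the islet label through high beta cell markers, whose summed log2 level was 15.55 to 15.75 in Men1flf Rbp2flf RIP-Cre and 15.07 to 15.40 in RIP-Cre islets. The median of all genes on an array moved with genotype. It was 7.86 to 7.87 in Men1flf RIP-Cre, 7.82 to 7.98 in Rbp2flf RIP-Cre, 7.88 to 7.95 in Men1flf Rbp2flf RIP-Cre, 7.97 to 8.16 in RIP-Cre and 7.99 to 8.10 in wt islets. The shift was largest at low levels. In Men1flf RIP-Cre against RIP-Cre, the genes in the lowest level decile had a median difference of -0.43 and those in the highest decile a median of 0.20. Differences of the replication genes are therefore given beside the median of all genes, and again after cyclic loess normalization, which sets the arrays to 1 curve across levels.

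The replication genes lay across the range of levels, with Gins1 lowest at a mean of 6.17 (percentile 10.2 of all genes) and Rfc5 highest at 9.67 (percentile 85.6). Their median level was 7.92, beside 7.96 for all genes. None was listed at 0 on any array. The heat map of the 49 genes shows each array against the mean of the RIP-Cre arrays.

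**Figure D1:**
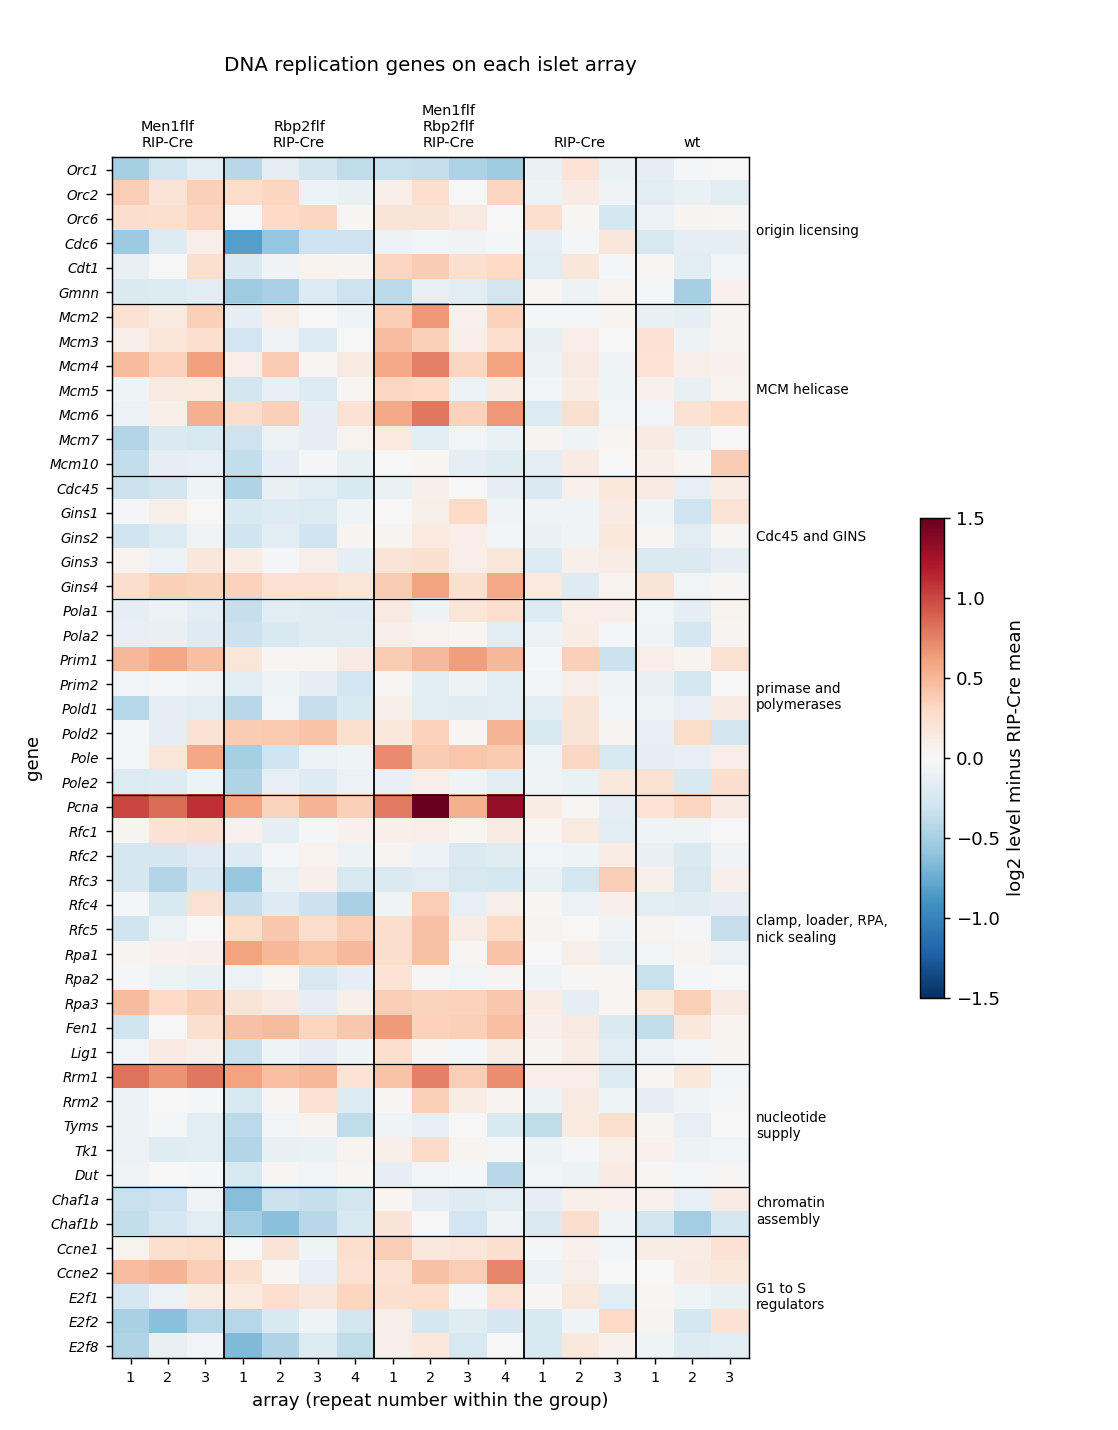
Heat map of the 49 replication genes (rows, grouped by role) on the 17 arrays (columns, grouped by genotype), coloured by log2 level minus the mean of the RIP-Cre arrays. Pcna and Rrm1 are above the RIP-Cre mean on all 11 knockout arrays, and so are Mcm4, Gins4 and Rpa1. Orc1 and Gmnn are below it on all 11.

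In Men1flf RIP-Cre against RIP-Cre islets, 12 replication genes passed the limma test at a Benjamini-Hochberg adjusted p under 0.05, and 53.5% of all genes passed it. Pcna, Rrm1, Prim1, Mcm4, Ccne2, Rpa3, Gins4 and Orc2 rose (8 genes, where 15.7% of all genes rose), and E2f2, Orc1, Mcm7 and Rfc2 fell (4 genes, where 37.8% of all genes fell). The median difference of the 49 genes was -0.02, beside -0.23 for all genes. The largest rise was that of the sliding clamp gene Pcna, at 0.98. The Rpa3 rise rests on the kept probe set and did not pass with the median of both, as given below.

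In Rbp2flf RIP-Cre against RIP-Cre islets, 8 replication genes were called, and 13.4% of all genes were called. The single-strand binding subunit gene Rpa1, Rrm1 and the clamp loader gene Rfc5 rose (3 genes, against 6.7% of all genes), while Cdc6, Chaf1b, E2f8, Chaf1a and Gmnn fell (5 genes, against 6.7% of all genes). The median difference of the 49 genes was -0.12, beside -0.13 for all genes.

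In Men1flf Rbp2flf RIP-Cre against RIP-Cre islets, 15 replication genes were called, and 33.7% of all genes were called. Pcna, Mcm6, Mcm4, Rrm1, Prim1, Pole, Gins4, Fen1, Ccne2, Rpa3, Mcm2, Cdt1, Mcm3 and Rpa1 rose (14 genes, against 13% of all genes). Orc1 fell, the only one to do so, against 20.6% of all genes. The Rpa3 rise rests on the kept probe set here too. The median difference of the 49 genes was 0.10, beside -0.15 for all genes. All 3 comparisons use the same RIP-Cre arrays. In bulk islets, more cells that express a gene and more RNA per cell cannot be told apart.

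Among the 6 origin licensing genes, Orc1, the ATPase subunit of the origin recognition complex, was 6.18, 6.40 and 6.52 in Men1flf RIP-Cre islets, 6.26, 6.53, 6.40 and 6.30 in Rbp2flf RIP-Cre islets, 6.35, 6.32, 6.21 and 6.15 in Men1flf Rbp2flf RIP-Cre islets, 6.58, 6.88 and 6.58 in RIP-Cre islets and 6.54, 6.65 and 6.67 in wt islets. Every knockout array was below every RIP-Cre and wt array, although the highest knockout array (6.53) was close to the lowest wt array (6.54). The wt arrays overlapped the RIP-Cre arrays. The difference from RIP-Cre was -0.31 ± 0.11 (SE; limma adjusted p = 0.0275) in Men1flf RIP-Cre and -0.42 ± 0.10 (SE; limma adjusted p = 0.00902) in Men1flf Rbp2flf RIP-Cre, and it was -0.31 ± 0.10 (SE; limma adjusted p = 0.0563) in Rbp2flf RIP-Cre, which did not pass. All genes of its level decile had median differences of -0.37, -0.23 and -0.24 in Men1flf, Rbp2flf and Men1flf Rbp2flf RIP-Cre islets. After cyclic loess the Orc1 difference in Men1flf RIP-Cre turned to 0.07 and that in Men1flf Rbp2flf RIP-Cre was -0.17, and neither was called. The Men1flf RIP-Cre call was also lost without RIP-Cre array 2 or Men1flf RIP-Cre array 1 or 2 (log2 difference -0.39 to -0.21 over all arrays left out in turn).

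Orc2, another subunit of the complex, was 8.88, 8.71 and 8.87 in Men1flf RIP-Cre islets, 8.79, 8.83, 8.43 and 8.40 in Rbp2flf RIP-Cre islets, 8.61, 8.77, 8.51 and 8.84 in Men1flf Rbp2flf RIP-Cre islets, 8.44, 8.64 and 8.46 in RIP-Cre islets and 8.35, 8.41 and 8.35 in wt islets. The Men1flf RIP-Cre arrays were above all RIP-Cre arrays, and the other knockout groups overlapped them. Its rise in Men1flf RIP-Cre was 0.31 ± 0.12 (SE; limma adjusted p = 0.0463), and the call was lost without RIP-Cre array 1 or 3 or Men1flf RIP-Cre array 1 or 3 (log2 difference 0.27 to 0.37 over all arrays left out in turn). Cdc6, the ATPase that helps load MCM, was 6.65, 7.0 and 7.29 in Men1flf RIP-Cre islets, 6.37, 6.61, 6.88 and 6.88 in Rbp2flf RIP-Cre islets, 7.11, 7.15, 7.14 and 7.16 in Men1flf Rbp2flf RIP-Cre islets, 7.05, 7.17 and 7.36 in RIP-Cre islets and 6.95, 7.05 and 7.05 in wt islets. All Rbp2flf RIP-Cre arrays were below all RIP-Cre and wt arrays, and the Men1flf Rbp2flf RIP-Cre arrays sat among them. The fall in Rbp2flf RIP-Cre was -0.51 ± 0.14 (SE; limma adjusted p = 0.0315), and the call did not hold after cyclic loess (-0.29) or without RIP-Cre array 3 or Rbp2flf RIP-Cre array 1 or 2 (log2 difference -0.58 to -0.40 over all arrays left out in turn).

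Cdt1, the partner of Cdc6 in loading, was 7.17, 7.28 and 7.52 in Men1flf RIP-Cre islets, 7.07, 7.23, 7.34 and 7.33 in Rbp2flf RIP-Cre islets, 7.61, 7.67, 7.52 and 7.58 in Men1flf Rbp2flf RIP-Cre islets, 7.13, 7.45 and 7.27 in RIP-Cre islets and 7.30, 7.12 and 7.24 in wt islets. Men1flf Rbp2flf RIP-Cre arrays were all above the RIP-Cre and wt arrays. Their rise over RIP-Cre was 0.31 ± 0.10 (SE; limma adjusted p = 0.0306), a call that was lost without RIP-Cre array 1 or 3 or Men1flf Rbp2flf RIP-Cre array 2 or 4 (log2 difference 0.24 to 0.40 over all arrays left out in turn). Gmnn encodes geminin, the inhibitor of Cdt1, and was 6.51, 6.52 and 6.57 in Men1flf RIP-Cre islets, 6.20, 6.24, 6.52 and 6.42 in Rbp2flf RIP-Cre islets, 6.32, 6.61, 6.56 and 6.46 in Men1flf Rbp2flf RIP-Cre islets, 6.76, 6.65 and 6.78 in RIP-Cre islets and 6.71, 6.23 and 6.80 in wt islets. Rbp2flf RIP-Cre arrays were below all RIP-Cre arrays, but wt array 2 was as low as they were. The fall of Gmnn in Rbp2flf RIP-Cre was -0.39 ± 0.12 (SE; limma adjusted p = 0.0487) and -0.15 after cyclic loess, where it was not called. Its call was lost without RIP-Cre array 1, 2 or 3 or Rbp2flf RIP-Cre array 1, 2 or 4 (log2 difference -0.44 to -0.34 over all arrays left out in turn). Orc6 was called in no comparison, with differences from RIP-Cre of 0.28, 0.16 and 0.13 in Men1flf, Rbp2flf and Men1flf Rbp2flf RIP-Cre islets.

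Of the 7 MCM genes, 4 rose in Men1flf Rbp2flf RIP-Cre islets (Mcm6, Mcm4, Mcm2 and Mcm3), 1 rose and 1 fell in Men1flf RIP-Cre islets (Mcm4 and Mcm7), and none passed in Rbp2flf RIP-Cre islets. Mcm4 was 8.12, 7.99 and 8.27 in Men1flf RIP-Cre islets, 7.75, 8.03, 7.67 and 7.78 in Rbp2flf RIP-Cre islets, 8.22, 8.41, 7.97 and 8.25 in Men1flf Rbp2flf RIP-Cre islets, 7.57, 7.78 and 7.60 in RIP-Cre islets and 7.85, 7.74 and 7.71 in wt islets. All Men1flf RIP-Cre and Men1flf Rbp2flf RIP-Cre arrays were above all RIP-Cre and wt arrays. The rises were 0.48 ± 0.12 (SE; limma adjusted p = 0.00536) in Men1flf RIP-Cre and 0.56 ± 0.11 (SE; limma adjusted p = 0.00352) in Men1flf Rbp2flf RIP-Cre, and both were called without each array in turn. Mcm6, whose promoter with 3 E2F-type words is printed above, was 7.96, 8.14 and 8.58 in Men1flf RIP-Cre islets, 8.31, 8.40, 7.90 and 8.26 in Rbp2flf RIP-Cre islets, 8.62, 8.84, 8.39 and 8.70 in Men1flf Rbp2flf RIP-Cre islets, 7.84, 8.29 and 8.01 in RIP-Cre islets and 8.0, 8.26 and 8.34 in wt islets. Its Men1flf Rbp2flf RIP-Cre arrays were above every RIP-Cre and wt array, and its Men1flf RIP-Cre arrays spread across both. The rise in Men1flf Rbp2flf RIP-Cre was 0.59 ± 0.16 (SE; limma adjusted p = 0.0136), lost without RIP-Cre array 1 or 3 (log2 difference 0.49 to 0.71 over all arrays left out in turn).

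Mcm2 was 8.33, 8.24 and 8.46 in Men1flf RIP-Cre islets, 7.96, 8.20, 8.10 and 8.03 in Rbp2flf RIP-Cre islets, 8.47, 8.75, 8.16 and 8.45 in Men1flf Rbp2flf RIP-Cre islets, 8.08, 8.08 and 8.14 in RIP-Cre islets and 7.99, 7.97 and 8.14 in wt islets. The Men1flf Rbp2flf RIP-Cre arrays were above all RIP-Cre and wt arrays, by a mean of 0.36 ± 0.11 (SE; limma adjusted p = 0.0254) over RIP-Cre, and so were the Men1flf RIP-Cre arrays, whose difference of 0.24 did not pass. The Mcm2 call was lost without RIP-Cre array 1 or 3 or Men1flf Rbp2flf RIP-Cre array 2 or 4 (log2 difference 0.26 to 0.46 over all arrays left out in turn). Mcm3 was 7.26, 7.35 and 7.42 in Men1flf RIP-Cre islets, 6.88, 7.12, 6.97 and 7.16 in Rbp2flf RIP-Cre islets, 7.63, 7.53, 7.27 and 7.42 in Men1flf Rbp2flf RIP-Cre islets, 7.06, 7.27 and 7.18 in RIP-Cre islets and 7.39, 7.09 and 7.21 in wt islets. Its Men1flf Rbp2flf RIP-Cre arrays were above all Rbp2flf RIP-Cre arrays, and the lowest of them (7.27) equalled the highest RIP-Cre array. They overlapped the wt arrays, as wt array 1 (7.39) was above that lowest array. It rose by 0.29 ± 0.10 (SE; limma adjusted p = 0.042) over RIP-Cre, a call lost without RIP-Cre array 1 or 3 or Men1flf Rbp2flf RIP-Cre array 1, 2 or 4 (log2 difference 0.24 to 0.36 over all arrays left out in turn). Mcm7 was 8.65, 8.87 and 8.85 in Men1flf RIP-Cre islets, 8.78, 9.0, 8.96 and 9.14 in Rbp2flf RIP-Cre islets, 9.24, 8.93, 9.05 and 8.99 in Men1flf Rbp2flf RIP-Cre islets, 9.13, 9.02 and 9.12 in RIP-Cre islets and 9.21, 8.99 and 9.10 in wt islets. Men1flf RIP-Cre arrays were below all arrays of the control groups, and the difference from RIP-Cre was -0.30 ± 0.11 (SE; limma adjusted p = 0.0292). This fall was also called after cyclic loess (-0.28), and it was lost without RIP-Cre array 1 or 3 or Men1flf RIP-Cre array 1 (log2 difference -0.34 to -0.23 over all arrays left out in turn). Mcm5, and Mcm10, which acts when origins fire and is not a subunit of the helicase ring, did not pass in any comparison with RIP-Cre, with differences of 0.17 and -0.08 in Men1flf Rbp2flf RIP-Cre islets.

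**Figure D2:**
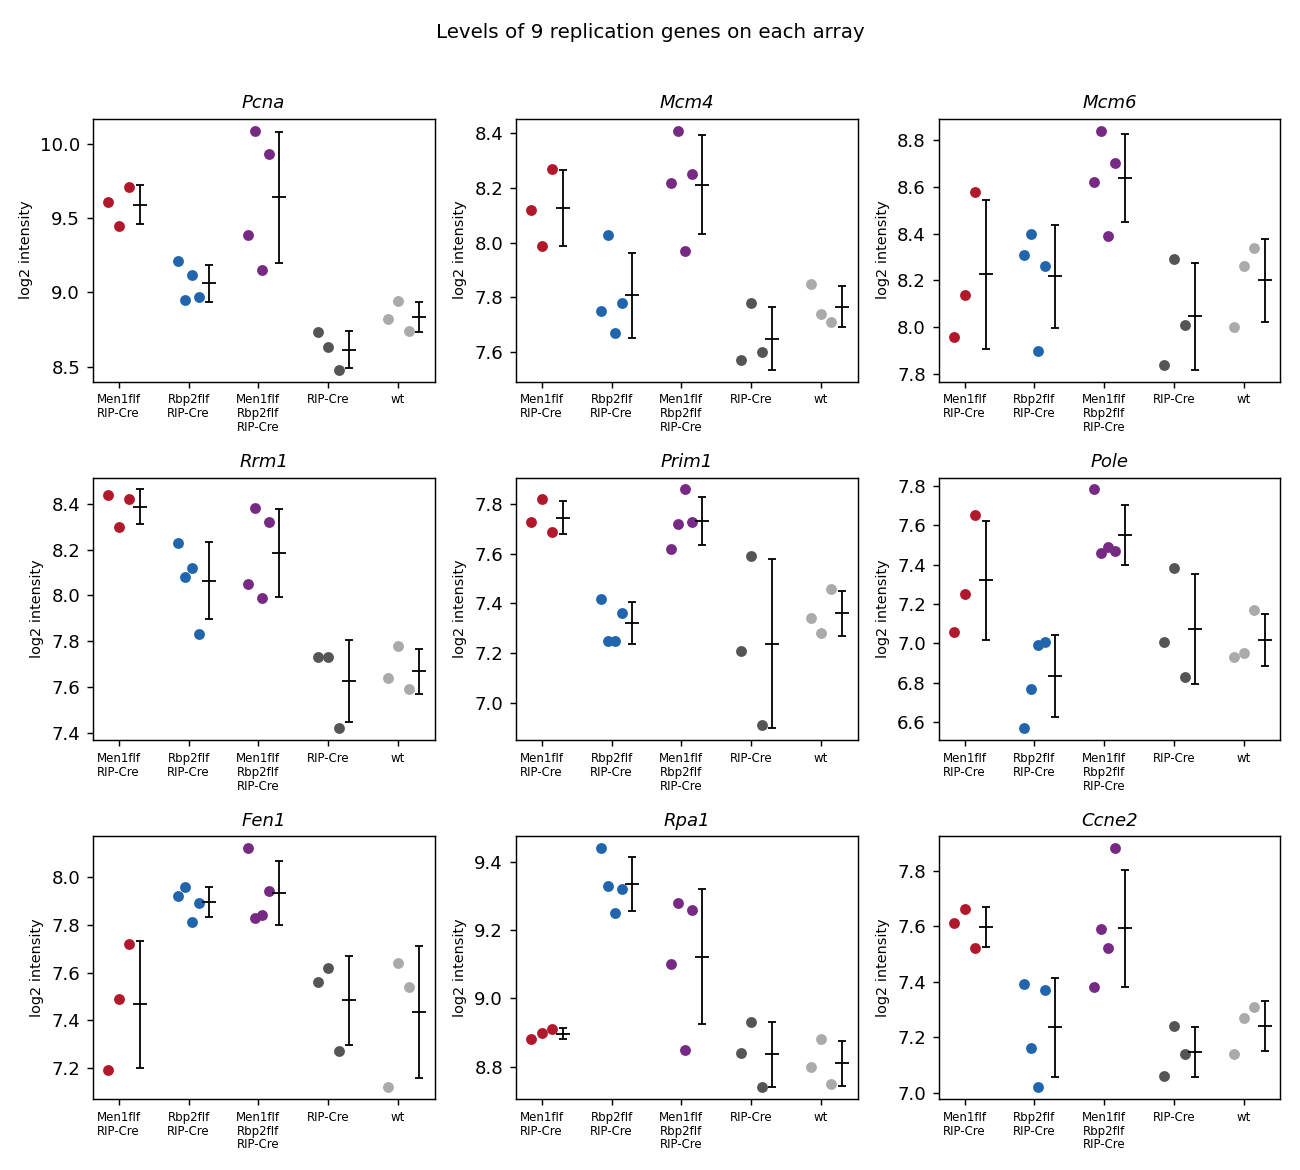
Log2 intensity (vertical) of 9 replication genes on every array (points) by genotype (horizontal), with the mean and SD of each group beside the points. Pcna and Rrm1 are above all RIP-Cre arrays on all 11 knockout arrays, and Rpa1 is highest in Rbp2flf RIP-Cre islets.

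The GINS subunit gene Gins4 was 8.85, 8.94 and 8.92 in Men1flf RIP-Cre islets, 8.93, 8.81, 8.82 and 8.77 in Rbp2flf RIP-Cre islets, 8.97, 9.19, 8.83 and 9.15 in Men1flf Rbp2flf RIP-Cre islets, 8.73, 8.39 and 8.64 in RIP-Cre islets and 8.78, 8.55 and 8.6 in wt islets. All 3 knockout groups lay above the RIP-Cre arrays, and 1 Rbp2flf RIP-Cre array was below the highest wt array. It rose by 0.32 ± 0.11 (SE; limma adjusted p = 0.0253) in Men1flf RIP-Cre and 0.45 ± 0.10 (SE; limma adjusted p = 0.0067) in Men1flf Rbp2flf RIP-Cre, and the difference of 0.25 in Rbp2flf RIP-Cre did not pass. The Men1flf RIP-Cre call was lost without RIP-Cre array 2 or Men1flf RIP-Cre array 2 or 3 (log2 difference 0.22 to 0.39 over all arrays left out in turn). Cdc45, Gins1, Gins2 and Gins3 were not called in any of the 3 comparisons, with differences of -0.22 to 0.05 in Men1flf RIP-Cre, -0.24 to 0.01 in Rbp2flf RIP-Cre and -0.04 to 0.18 in Men1flf Rbp2flf RIP-Cre islets.

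Prim1, the catalytic subunit of primase, was 7.73, 7.82 and 7.69 in Men1flf RIP-Cre islets, 7.42, 7.25, 7.25 and 7.36 in Rbp2flf RIP-Cre islets, 7.62, 7.72, 7.86 and 7.73 in Men1flf Rbp2flf RIP-Cre islets, 7.21, 7.59 and 6.91 in RIP-Cre islets and 7.34, 7.28 and 7.46 in wt islets. Men1flf RIP-Cre and Men1flf Rbp2flf RIP-Cre arrays were above all RIP-Cre and wt arrays, although the RIP-Cre arrays differed from each other more than those of any other group did. The rises were 0.51 ± 0.13 (SE; limma adjusted p = 0.00563) and, in Men1flf Rbp2flf RIP-Cre, 0.50 ± 0.12 (SE; limma adjusted p = 0.00877). The second was lost without RIP-Cre array 3 (log2 difference 0.33 to 0.67 over all arrays left out in turn). Pole, the catalytic subunit of the leading-strand polymerase epsilon, was 7.06, 7.25 and 7.65 in Men1flf RIP-Cre islets, 6.57, 6.77, 6.99 and 7.01 in Rbp2flf RIP-Cre islets, 7.78, 7.46, 7.49 and 7.47 in Men1flf Rbp2flf RIP-Cre islets, 7.01, 7.38 and 6.83 in RIP-Cre islets and 6.93, 6.95 and 7.17 in wt islets. The Men1flf Rbp2flf RIP-Cre arrays were above all Rbp2flf RIP-Cre, RIP-Cre and wt arrays. Pole rose over RIP-Cre by 0.48 ± 0.16 (SE; limma adjusted p = 0.0292), a call lost without RIP-Cre array 1 or 3 or Men1flf Rbp2flf RIP-Cre array 1 or 4 (log2 difference 0.36 to 0.63 over all arrays left out in turn). The other 6 genes of this role (Pola1, Pola2, Prim2, Pold1, Pold2 and Pole2) were not called against RIP-Cre, with differences of -0.24 to 0.02 in Men1flf RIP-Cre, -0.26 to 0.36 in Rbp2flf RIP-Cre and -0.10 to 0.26 in Men1flf Rbp2flf RIP-Cre islets.

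Pcna encodes the sliding clamp that tethers polymerases to DNA. Its level was 9.61, 9.45 and 9.71 in Men1flf RIP-Cre islets, 9.21, 8.95, 9.12 and 8.97 in Rbp2flf RIP-Cre islets, 9.39, 10.09, 9.15 and 9.93 in Men1flf Rbp2flf RIP-Cre islets, 8.73, 8.63 and 8.48 in RIP-Cre islets and 8.82, 8.94 and 8.74 in wt islets. All 11 knockout arrays were above all 6 control arrays, although the lowest knockout array (8.95) was close to the highest wt array (8.94). In Men1flf RIP-Cre islets Pcna rose by 0.98 ± 0.18 (SE; limma adjusted p = 0.00113) and in Men1flf Rbp2flf RIP-Cre islets by 1.03 ± 0.17 (SE; limma adjusted p = 0.00171), both called without each array in turn. The Rbp2flf RIP-Cre difference was 0.45 ± 0.17 (SE; limma adjusted p = 0.0775), which did not pass. Men1flf Rbp2flf RIP-Cre arrays were the most spread, with arrays 2 and 4 above arrays 1 and 3. A second probe set named Pcna differed from this one by 0.01 to 0.04 on every array, and whether both read a near-identical copy of the gene was not tested.

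Rpa1, the large subunit of RPA, was 8.88, 8.90 and 8.91 in Men1flf RIP-Cre islets, 9.44, 9.33, 9.25 and 9.32 in Rbp2flf RIP-Cre islets, 9.10, 9.28, 8.85 and 9.26 in Men1flf Rbp2flf RIP-Cre islets, 8.84, 8.93 and 8.74 in RIP-Cre islets and 8.80, 8.88 and 8.75 in wt islets. Rbp2flf RIP-Cre arrays were above all RIP-Cre and wt arrays, while the lowest Men1flf Rbp2flf RIP-Cre array fell among them. Rpa1 rose by 0.50 ± 0.10 (SE; limma adjusted p = 0.0123) in Rbp2flf RIP-Cre and 0.29 ± 0.10 (SE; limma adjusted p = 0.0355) in Men1flf Rbp2flf RIP-Cre. The first call was lost without RIP-Cre array 3 (log2 difference 0.45 to 0.55 over all arrays left out in turn) and the second without RIP-Cre array 1 or 3 or Men1flf Rbp2flf RIP-Cre array 2 or 4 (log2 difference 0.23 to 0.38 over all arrays left out in turn). Rpa3, the small subunit, was 8.25, 8.07 and 8.13 in Men1flf RIP-Cre islets, 7.97, 7.91, 7.63 and 7.86 in Rbp2flf RIP-Cre islets, 8.14, 8.11, 8.12 and 8.18 in Men1flf Rbp2flf RIP-Cre islets, 7.89, 7.63 and 7.81 in RIP-Cre islets and 7.94, 8.13 and 7.90 in wt islets. Men1flf RIP-Cre and Men1flf Rbp2flf RIP-Cre arrays were above all RIP-Cre arrays, but wt arrays were above them too and overlapped both knockouts. The rises over RIP-Cre were 0.37 ± 0.10 (SE; limma adjusted p = 0.00816) and, in Men1flf Rbp2flf RIP-Cre, 0.36 ± 0.10 (SE; limma adjusted p = 0.0123). The second Rpa3 probe set read lower by 0.52 to 1.04. It was 7.53, 7.14 and 7.31 in Men1flf RIP-Cre islets and 7.40, 7.25, 7.28 and 7.14 in Men1flf Rbp2flf RIP-Cre islets. Both groups overlapped its RIP-Cre arrays, at 7.12, 7.10 and 7.29. With the median of both probe sets the rise passed in neither genotype, at 0.27 in Men1flf RIP-Cre and 0.23 in Men1flf Rbp2flf RIP-Cre islets. Whether either Rpa3 probe set reads a near-identical copy of the gene was not tested.

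Fen1, the nuclease that trims Okazaki fragments, was 7.19, 7.49 and 7.72 in Men1flf RIP-Cre islets, 7.92, 7.96, 7.81 and 7.89 in Rbp2flf RIP-Cre islets, 8.12, 7.83, 7.84 and 7.94 in Men1flf Rbp2flf RIP-Cre islets, 7.56, 7.62 and 7.27 in RIP-Cre islets and 7.12, 7.64 and 7.54 in wt islets. Rbp2flf RIP-Cre and Men1flf Rbp2flf RIP-Cre arrays were above all RIP-Cre and wt arrays, and Men1flf RIP-Cre arrays were spread across them. Fen1 rose by 0.45 ± 0.14 (SE; limma adjusted p = 0.023) in Men1flf Rbp2flf RIP-Cre, and its difference of 0.41 ± 0.14 (SE; limma adjusted p = 0.0549) in Rbp2flf RIP-Cre did not pass as deposited but did after cyclic loess, at 0.59. The Men1flf Rbp2flf RIP-Cre call was lost without RIP-Cre array 3 or Men1flf Rbp2flf RIP-Cre array 1 or 4 (log2 difference 0.34 to 0.52 over all arrays left out in turn). Rfc5, a clamp loader subunit, was 9.28, 9.48 and 9.57 in Men1flf RIP-Cre islets, 9.85, 9.98, 9.84 and 9.94 in Rbp2flf RIP-Cre islets, 9.84, 10.01, 9.68 and 9.87 in Men1flf Rbp2flf RIP-Cre islets, 9.62, 9.58 and 9.52 in RIP-Cre islets and 9.62, 9.54 and 9.22 in wt islets. Rbp2flf RIP-Cre arrays were above all control arrays. The rise was 0.33 ± 0.11 (SE; limma adjusted p = 0.0495), and it was lost after cyclic loess (0.25) and without RIP-Cre array 1, 2 or 3 or Rbp2flf RIP-Cre array 1, 2 or 4 (log2 difference 0.30 to 0.35 over all arrays left out in turn). Rfc2, another loader subunit, was 8.43, 8.43 and 8.49 in Men1flf RIP-Cre islets, 8.49, 8.65, 8.74 and 8.61 in Rbp2flf RIP-Cre islets, 8.72, 8.6, 8.47 and 8.50 in Men1flf Rbp2flf RIP-Cre islets, 8.64, 8.62 and 8.79 in RIP-Cre islets and 8.57, 8.47 and 8.63 in wt islets. Men1flf RIP-Cre arrays were below all RIP-Cre arrays, and 1 of them lay within the range of wt. The difference from RIP-Cre was -0.23 ± 0.09 (SE; limma adjusted p = 0.0429) as deposited and -0.14 after cyclic loess, where it was not called. The Rfc2 call was lost without RIP-Cre array 1 or 3 or Men1flf RIP-Cre array 1, 2 or 3 (log2 difference -0.27 to -0.18 over all arrays left out in turn). Rfc1, Rfc3, Rfc4, Rpa2 and the ligase gene Lig1 were not called, with differences from RIP-Cre between -0.34 and 0.17 in the 3 knockouts.

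Rrm1 encodes the large subunit of ribonucleotide reductase, which makes deoxynucleotides. It was 8.44, 8.30 and 8.42 in Men1flf RIP-Cre islets, 8.23, 8.08, 8.12 and 7.83 in Rbp2flf RIP-Cre islets, 8.05, 8.38, 7.99 and 8.32 in Men1flf Rbp2flf RIP-Cre islets, 7.73, 7.73 and 7.42 in RIP-Cre islets and 7.64, 7.78 and 7.59 in wt islets. All 11 knockout arrays were above all 6 control arrays, and Men1flf RIP-Cre islets had the highest mean. The lowest knockout array was 7.83 and the highest control array was 7.78. Against RIP-Cre, Rrm1 rose by 0.76 ± 0.13 (SE; limma adjusted p = 0.000602) in Men1flf RIP-Cre, 0.44 ± 0.12 (SE; limma adjusted p = 0.0305) in Rbp2flf RIP-Cre and 0.56 ± 0.12 (SE; limma adjusted p = 0.00481) in Men1flf Rbp2flf RIP-Cre islets. The Rbp2flf RIP-Cre call was lost without RIP-Cre array 3 or Rbp2flf RIP-Cre array 1 or 2 (log2 difference 0.34 to 0.52 over all arrays left out in turn). Rrm2, which encodes the small subunit that varies with S phase, was 7.42, 7.51 and 7.48 in Men1flf RIP-Cre islets, 7.27, 7.53, 7.74 and 7.31 in Rbp2flf RIP-Cre islets, 7.53, 7.87, 7.63 and 7.55 in Men1flf Rbp2flf RIP-Cre islets, 7.44, 7.65 and 7.45 in RIP-Cre islets and 7.37, 7.46 and 7.48 in wt islets. Its groups overlapped, and it was not called, with differences from RIP-Cre of -0.04, -0.05 and 0.13 in Men1flf, Rbp2flf and Men1flf Rbp2flf RIP-Cre islets. Tyms, Tk1 and Dut, which supply thymidine nucleotides or remove dUTP, were not called either, with differences between -0.20 and 0.10. The second Tk1 probe set read lower than the kept one by 0.19 to 0.84. It was 7.16, 7.29 and 7.27 in Men1flf RIP-Cre and 7.11, 7.10, 7.42 and 7.18 in Rbp2flf RIP-Cre islets. All of these were below its RIP-Cre arrays, at 7.52, 7.54 and 7.76. In Men1flf Rbp2flf RIP-Cre islets it was 7.52, 7.58, 7.30 and 7.49, which overlapped RIP-Cre. Whether either Tk1 probe set reads a near-identical copy of the gene was not tested.

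Both chromatin assembly genes fell in Rbp2flf RIP-Cre islets. Chaf1a, the large subunit of the chaperone that places histones behind the fork, was 7.39, 7.41 and 7.67 in Men1flf RIP-Cre islets, 7.08, 7.40, 7.38 and 7.45 in Rbp2flf RIP-Cre islets, 7.75, 7.59, 7.53 and 7.55 in Men1flf Rbp2flf RIP-Cre islets, 7.57, 7.80 and 7.79 in RIP-Cre islets and 7.78, 7.60 and 7.84 in wt islets. Rbp2flf RIP-Cre arrays were below all RIP-Cre and wt arrays. The fall was -0.39 ± 0.11 (SE; limma adjusted p = 0.0328). Chaf1b, its partner subunit, was 7.34, 7.45 and 7.54 in Men1flf RIP-Cre islets, 7.18, 7.08, 7.29 and 7.46 in Rbp2flf RIP-Cre islets, 7.90, 7.71, 7.42 and 7.65 in Men1flf Rbp2flf RIP-Cre islets, 7.49, 7.97 and 7.65 in RIP-Cre islets and 7.43, 7.18 and 7.45 in wt islets. Here the Rbp2flf RIP-Cre arrays were below all RIP-Cre arrays but overlapped the wt arrays, which were also below RIP-Cre. The difference from RIP-Cre was -0.45 ± 0.13 (SE; limma adjusted p = 0.0381). After cyclic loess the differences were -0.21 for Chaf1a and -0.26 for Chaf1b, and neither was called. The Chaf1a call was lost without RIP-Cre array 2 or 3 or Rbp2flf RIP-Cre array 1 or 2 (log2 difference -0.47 to -0.31 over all arrays left out in turn) and the Chaf1b call without RIP-Cre array 2 or 3 or Rbp2flf RIP-Cre array 1 or 2 (log2 difference -0.56 to -0.32 over all arrays left out in turn).

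Among the 5 regulators of entry into S phase, Ccne2, which encodes a cyclin E, was 7.61, 7.66 and 7.52 in Men1flf RIP-Cre islets, 7.39, 7.16, 7.02 and 7.37 in Rbp2flf RIP-Cre islets, 7.38, 7.59, 7.52 and 7.88 in Men1flf Rbp2flf RIP-Cre islets, 7.06, 7.24 and 7.14 in RIP-Cre islets and 7.14, 7.27 and 7.31 in wt islets. All Men1flf RIP-Cre and Men1flf Rbp2flf RIP-Cre arrays were above all RIP-Cre and wt arrays. It rose by 0.45 ± 0.12 (SE; limma adjusted p = 0.0082) and, in Men1flf Rbp2flf RIP-Cre, by 0.45 ± 0.12 (SE; limma adjusted p = 0.0112), called without each array in turn. Ccne1 and E2f1, an activating E2F, were not called, with differences of 0.24 and 0.17 in Men1flf Rbp2flf RIP-Cre islets.

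E2f2, another activating E2F, was 7.13, 6.99 and 7.19 in Men1flf RIP-Cre islets, 7.19, 7.39, 7.55 and 7.34 in Rbp2flf RIP-Cre islets, 7.71, 7.37, 7.43 and 7.37 in Men1flf Rbp2flf RIP-Cre islets, 7.39, 7.55 and 7.91 in RIP-Cre islets and 7.66, 7.35 and 7.83 in wt islets. Men1flf RIP-Cre arrays were below every array of the other groups, or equal to the lowest of them. The fall was -0.51 ± 0.15 (SE; limma adjusted p = 0.0101), and it was -0.20 after cyclic loess, where it was not called, and was lost without RIP-Cre array 3 (log2 difference -0.63 to -0.37 over all arrays left out in turn). E2f8, a repressive E2F that peaks in S phase, was 6.60, 6.93 and 7.0 in Men1flf RIP-Cre islets, 6.38, 6.59, 6.84 and 6.66 in Rbp2flf RIP-Cre islets, 7.13, 7.21, 6.81 and 7.05 in Men1flf Rbp2flf RIP-Cre islets, 6.82, 7.21 and 7.11 in RIP-Cre islets and 6.98, 6.85 and 6.88 in wt islets. The Rbp2flf RIP-Cre arrays were lower than RIP-Cre arrays with an overlap of 1 array on each side. The difference of E2f8 was -0.43 ± 0.13 (SE; limma adjusted p = 0.0434), a fall, and -0.21 after cyclic loess, where it was not called. The call was lost without RIP-Cre array 2 or 3 or Rbp2flf RIP-Cre array 1, 2 or 4 (log2 difference -0.54 to -0.35 over all arrays left out in turn).

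Men1flf Rbp2flf RIP-Cre islets were set directly against each single knockout. These differences of means use no RIP-Cre array, while their errors come from the fit over all 17 arrays. Against Rbp2flf RIP-Cre, 2 of the 49 genes were called, both higher, and 1.2% of all genes were called (0.582% higher). Pole rose by 0.72 ± 0.14 (SE; limma adjusted p = 0.0192) and Mcm3 by 0.43 ± 0.10 (SE; limma adjusted p = 0.0388). Both were also called after cyclic loess, at 0.73 for Pole and 0.44 for Mcm3, where 1.81% of all genes were called. With only the arrays compared in the fit, 1 of the 49 genes was called in place of 2. Both were called with the median of all genes on each array as a covariate too, where 2.56% of all genes were. The Pole call was lost without Rbp2flf RIP-Cre array 1 or 2 or Men1flf Rbp2flf RIP-Cre array 1 (log2 difference 0.63 to 0.77 over all arrays left out in turn) and the Mcm3 call without Rbp2flf RIP-Cre array 1, 2, 3 or 4 or Men1flf Rbp2flf RIP-Cre array 1, 2 or 4 (log2 difference 0.37 to 0.49 over all arrays left out in turn). The median difference of the 49 genes was 0.18, beside -0.01 for all genes, with 40 of 49 above 0. At an unadjusted limma p under 0.05 were 24 of the 49 genes, beside 2309 of all 19938 genes. Mcm4 (0.41 ± 0.10, SE; limma adjusted p = 0.0748), Pola1 (0.34 ± 0.09, SE; limma adjusted p = 0.0873) and Cdt1 (0.35 ± 0.10, SE; limma adjusted p = 0.0923) were next and did not pass.

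Against Men1flf RIP-Cre, limma called none of the 49 genes and 1.67% of all genes. At an unadjusted limma p under 0.05 were 11 of the 49 genes, beside 2871 of all 19938 genes. The median difference was 0.12, beside 0.07 for all genes. Rfc5 came nearest, at 0.41 ± 0.11 (SE; limma adjusted p = 0.065), and it passed after cyclic loess at 0.41, where 2.32% of all genes did. Fen1 differed by 0.47 ± 0.14 (SE; limma adjusted p = 0.121) and Mcm6 by 0.41 ± 0.16 (SE; limma adjusted p = 0.253). For Pcna the difference was 0.05, with a 95% interval of -0.31 to 0.41, and for Rrm1 it was -0.20, with an interval of -0.45 to 0.05.

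The interaction is the Rbp2flf effect in Men1flf RIP-Cre islets minus the Rbp2flf effect in RIP-Cre islets. Of the 49 genes only Rrm1 was called, at -0.64 ± 0.17 (SE; limma adjusted p = 0.0489), and 3.39% of all genes were called. Its Rbp2flf effect was -0.20 with Men1flf and 0.44 without it. The interaction was -0.84 after cyclic loess, where it was also called (2.53% of all genes), and -0.32 with the array median as a covariate, where it was not (0.1% of all genes). It was lost without RIP-Cre array 3, Men1flf RIP-Cre array 1, 2 or 3, Rbp2flf RIP-Cre array 1 or 2 or Men1flf Rbp2flf RIP-Cre array 1 or 3 (log2 difference -0.72 to -0.54 over all arrays left out in turn). The median interaction of the 49 genes was 0.23, beside 0.20 for all genes.

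RIP-Cre against wt gave no call among the 49 genes by limma, with 1 at an unadjusted p under 0.05, and no call among all genes (0%), with 552 at an unadjusted p under 0.05. Without wt array 3, limma called 26 of all genes, all lower in RIP-Cre, and still none of the 49. The median difference was 0.03 for the 49 genes and 0.01 for all genes. Pcna differed by -0.22 ± 0.18 (SE; limma adjusted p = 1) between these control groups, with the RIP-Cre arrays all below the wt arrays.

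The plot of difference against level shows how the array-wide shift runs through these genes. Of the 49 genes, 41 in Men1flf RIP-Cre, 30 in Rbp2flf RIP-Cre and 43 in Men1flf Rbp2flf RIP-Cre islets lay above the median difference of all genes of the same level decile. After cyclic loess, 18 of the 49 genes were called in Men1flf RIP-Cre (34.5% of all genes), of which 17 rose and 1 fell, against 18.4% and 16% of all genes. In Rbp2flf RIP-Cre (9.42% of all genes called) 3 rose and none fell, against 5.61% and 3.81% of all genes. In Men1flf Rbp2flf RIP-Cre (25.3% called) 21 rose and none fell, against 13.9% and 11.4% of all genes.

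**Figure D3:**
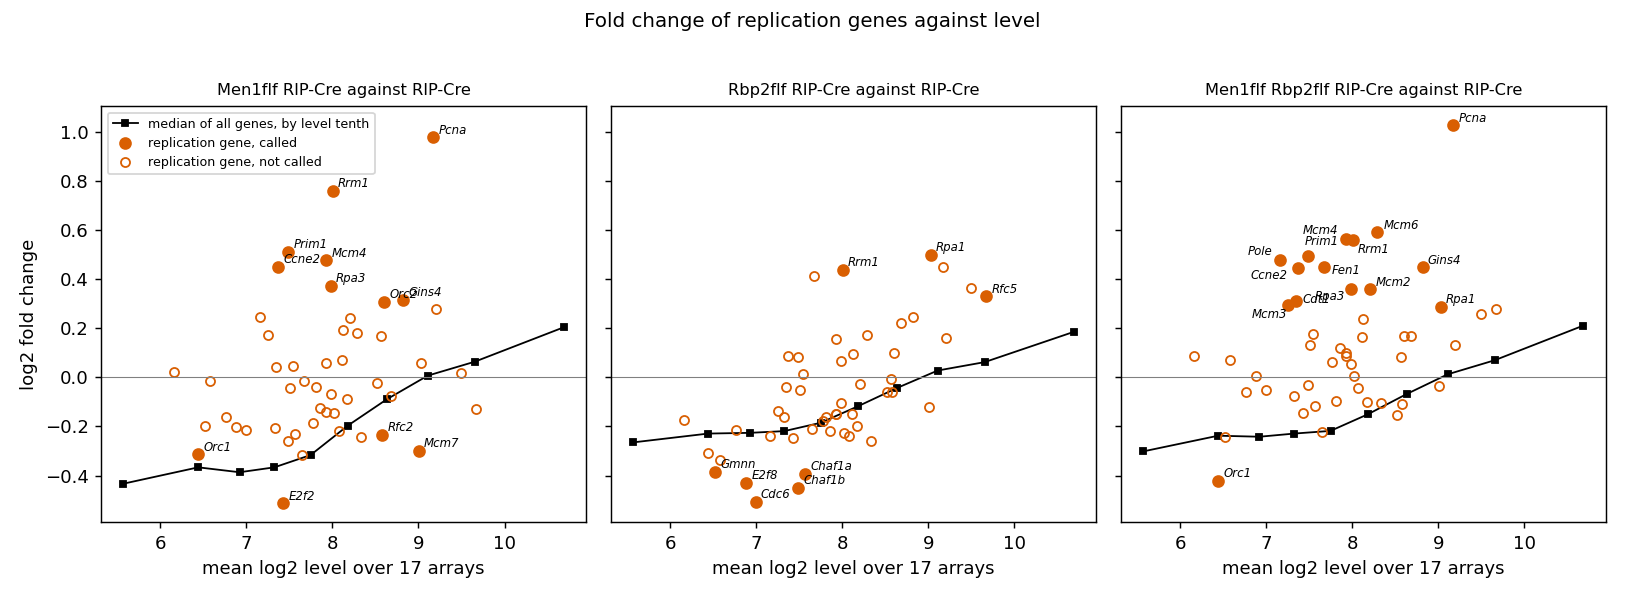
Log2 difference from RIP-Cre (vertical) against mean log2 level (horizontal) for the 49 replication genes in each knockout, with the line through the medians of all genes by level decile. Called genes are filled circles with names, and Pcna stands highest in Men1flf RIP-Cre (0.98) and Men1flf Rbp2flf RIP-Cre islets (1.03).

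The 9 genes called after cyclic loess in Men1flf RIP-Cre but not in the deposited values were Ccne1, Cdt1, Gins1, Gins3, Lig1, Mcm2, Mcm3, Pole and Rfc1, with normalized differences of 0.26 (Rfc1) to 0.59 (Pole). In Men1flf Rbp2flf RIP-Cre they were Ccne1, Gins1, Gins2, Gins3, Mcm5, Pola1 and Tk1, at 0.25 (Gins2) to 0.38 (Gins3). The Tk1 call rests on the kept probe set, as the second one, given above, was not tested after cyclic loess. All 14 rises called there as deposited were called after cyclic loess. With the median of all genes on each array as a covariate, none of the 49 genes passed by limma in any of these 3 comparisons. At an unadjusted limma p under 0.05 were 4, 5 and 15 in Men1flf, Rbp2flf and Men1flf Rbp2flf RIP-Cre islets. Over all 19938 genes these counts were 3331, 2497 and 3693. The shares of all genes called were then 1.99%, 0.211% and 1.4%. Pcna was then 0.63 in Men1flf RIP-Cre and 0.78 in Men1flf Rbp2flf RIP-Cre islets.

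**Figure D4:**
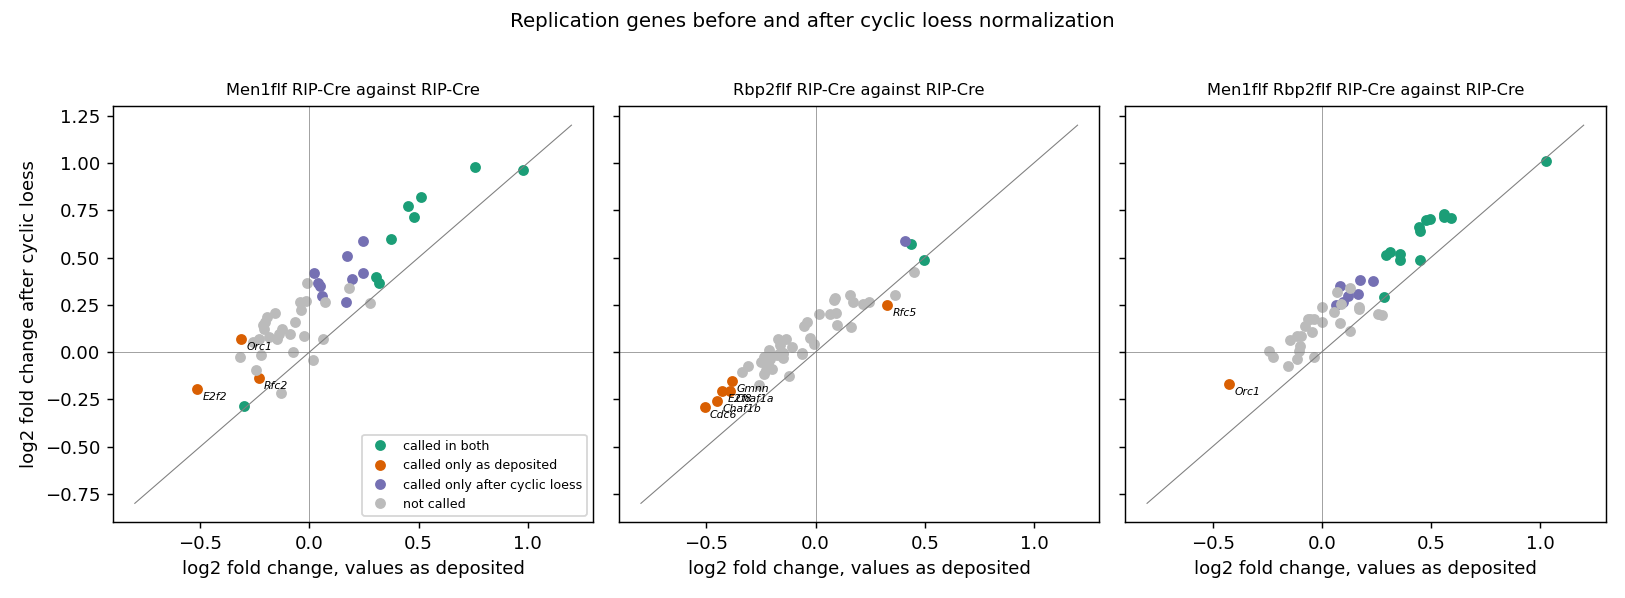
Log2 difference from RIP-Cre after cyclic loess (vertical) against the difference in the deposited values (horizontal) for the 49 replication genes in each knockout, with the line of equality and a colour for the settings in which a gene was called. Above the line lie 45 genes in Men1flf RIP-Cre, 43 in Rbp2flf RIP-Cre and 45 in Men1flf Rbp2flf RIP-Cre islets, and Orc1 in Men1flf RIP-Cre is below 0 on the horizontal axis and above it on the vertical axis.

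Within a group, the 49 genes varied together weakly. Over the 17 arrays, deviations from group means had a mean pairwise correlation of 0.166 among the 49 genes and 0.047 among all genes, points that share the array and its level shift. Mcm3 and Mcm5 had the closest deviations (r = 0.892). Of the 49 genes, 12, 25 and 39 were above the group mean on Men1flf RIP-Cre arrays 1 to 3. In Rbp2flf RIP-Cre the counts were 15, 34, 29 and 29, and in Men1flf Rbp2flf RIP-Cre 29, 34, 12 and 19. They were 14, 34 and 25 in RIP-Cre and 24, 15 and 35 in wt, so such swings occurred in every group. Deviations within a group sum to 0, which sets its arrays against each other. Mki67 and Top2a, general marks of cycling cells, were also high on RIP-Cre array 2. Mki67 was 7.82, 8.02 and 8.39 in Men1flf RIP-Cre islets, 7.61, 7.97, 7.64 and 7.55 in Rbp2flf RIP-Cre islets, 8.81, 8.12, 8.18 and 8.24 in Men1flf Rbp2flf RIP-Cre islets, 7.54, 8.61 and 7.52 in RIP-Cre islets and 7.81, 7.47 and 7.69 in wt islets. Top2a was 7.66, 7.5 and 7.90 in Men1flf RIP-Cre islets, 6.91, 7.35, 7.09 and 6.88 in Rbp2flf RIP-Cre islets, 7.80, 7.78, 7.55 and 7.57 in Men1flf Rbp2flf RIP-Cre islets, 6.92, 7.73 and 7.22 in RIP-Cre islets and 7.17, 6.91 and 7.08 in wt islets. Apart from RIP-Cre array 2, which was set aside after its values were seen, all Men1flf RIP-Cre and Men1flf Rbp2flf RIP-Cre arrays were above the control arrays for both marks. For Mki67 the lowest of them (7.82) was close to wt array 1 (7.81). Top2a had 2 probe sets, of which the one with the highest mean is given, and was also named by a probe set of several genes. Neither passed against RIP-Cre, with Mki67 at 0.19 ± 0.25 (SE; limma adjusted p = 0.529) in Men1flf RIP-Cre and 0.45 ± 0.23 (SE; limma adjusted p = 0.136) in Men1flf Rbp2flf RIP-Cre, and Top2a at 0.40 ± 0.17 (SE; limma adjusted p = 0.0645) and 0.39 ± 0.16 (SE; limma adjusted p = 0.0755).

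Markers of other islet and blood cells moved with genotype as well. Of 8 beta cell markers, 5 rose in Men1flf RIP-Cre, 2 in Rbp2flf RIP-Cre and 5 in Men1flf Rbp2flf RIP-Cre islets. Of 5 macrophage markers, 2 rose (C1qb and C1qc) in Men1flf RIP-Cre and Men1flf Rbp2flf RIP-Cre, where the summed level was 10.52 to 10.74 and 10.53 to 10.88, against 10.33 to 10.43 in RIP-Cre islets. Of 6 lymphocyte markers 1 rose in both (Cd79a), and the summed level was 9.68 to 9.79 in Men1flf RIP-Cre and 9.54 to 11.10 in Men1flf Rbp2flf RIP-Cre islets, against 9.50 to 9.93 in RIP-Cre islets and 9.53 to 11.16 in wt islets. Men1flf Rbp2flf RIP-Cre array 1 stood at 11.10 with a Mki67 level of 8.81, and wt array 1 at 11.16 with a Mki67 level of 7.81. Of 5 endothelial markers 2 fell in the same 2 genotypes (Pecam1 and Plvap), and 1 rose (Kdr) in Rbp2flf RIP-Cre islets. Of 3 alpha cell markers 2 fell (Irx1 and Irx2) and of 2 delta cell markers 1 fell (Hhex), in Men1flf RIP-Cre and Men1flf Rbp2flf RIP-Cre islets. Krt19, 1 of 3 duct markers, fell in Men1flf RIP-Cre islets by 0.45 on the log2 scale, and so did Alas2, the single red blood cell marker tested, by 0.43. Acta2, 1 of 4 mesenchymal markers, rose in Rbp2flf RIP-Cre islets by 0.66. Acinar markers were called nowhere, but their summed level differed widely between arrays of 1 group. It was 10.88, 12.31 and 13.81 on RIP-Cre arrays 1, 2 and 3. The highest levels were 13.99 on Men1flf Rbp2flf RIP-Cre array 3 and 13.95 on Men1flf RIP-Cre array 1. None of the 43 markers tested was listed at 0 on any array. Their part in the differences of the replication genes was not tested.

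A further 64 genes of the same pathway, in 4 lists, were read for comparison. In Men1flf RIP-Cre 16 of them rose and 8 fell, in Rbp2flf RIP-Cre 3 rose and 6 fell, and in Men1flf Rbp2flf RIP-Cre 11 rose and 3 fell, in the comparisons whose shares of all genes are given above. Among 14 other licensing and firing genes, the origin recognition subunit genes Orc4 (0.41 ± 0.10 (SE; limma adjusted p = 0.00555)) and Orc3 (0.31 ± 0.09 (SE; limma adjusted p = 0.00855)) rose in Men1flf RIP-Cre islets, while Recql4 (-0.52 ± 0.13 (SE; limma adjusted p = 0.00638)) and Ticrr (-0.51 ± 0.17 (SE; limma adjusted p = 0.0201)), both needed for origin firing, fell. In Men1flf Rbp2flf RIP-Cre islets Topbp1 (0.38 ± 0.10 (SE; limma adjusted p = 0.0112)) and Orc3 (0.24 ± 0.08 (SE; limma adjusted p = 0.0327)) rose and Recql4 (-0.37 ± 0.13 (SE; limma adjusted p = 0.0352)) fell. In Rbp2flf RIP-Cre islets limma called none of the 14.

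Among 22 other polymerase and fork genes, the polymerase epsilon subunit gene Pole4 (0.61 ± 0.11 (SE; limma adjusted p = 0.00103)) and the clamp loader factor gene Chtf8 (0.77 ± 0.15 (SE; limma adjusted p = 0.00136)) rose in Men1flf RIP-Cre islets, and the nuclease gene Dna2 (-0.48 ± 0.12 (SE; limma adjusted p = 0.00494)) and the fork protection gene Timeless (-0.52 ± 0.13 (SE; limma adjusted p = 0.00539)) fell. In Men1flf Rbp2flf RIP-Cre islets Chtf8 (0.72 ± 0.14 (SE; limma adjusted p = 0.00318)) and the histone chaperone gene Asf1b (0.55 ± 0.12 (SE; limma adjusted p = 0.00592)) rose, and Dna2 (-0.40 ± 0.11 (SE; limma adjusted p = 0.0152)) and Tipin (-0.24 ± 0.09 (SE; limma adjusted p = 0.0455)) fell. Rbp2flf RIP-Cre islets had 5 falls among the 22, led by Dscc1 (-0.47 ± 0.11 (SE; limma adjusted p = 0.0211)) and Chtf18 (-0.35 ± 0.09 (SE; limma adjusted p = 0.0236)), both of the alternative clamp loader, and a rise of Chtf8 (0.50 ± 0.14 (SE; limma adjusted p = 0.034)), which belongs to the same loader.

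Of 9 other nucleotide genes, only Umps, of pyrimidine synthesis, was called against RIP-Cre. It rose by 0.33 ± 0.10 (SE; limma adjusted p = 0.0121) in Men1flf RIP-Cre, 0.35 ± 0.09 (SE; limma adjusted p = 0.0273) in Rbp2flf RIP-Cre and 0.26 ± 0.09 (SE; limma adjusted p = 0.0415) in Men1flf Rbp2flf RIP-Cre islets. Of 19 other E2F, pocket protein and S phase kinase genes, Rb1, the retinoblastoma gene, rose in all 3 genotypes, by 0.47 ± 0.12 (SE; limma adjusted p = 0.00617), 0.44 ± 0.11 (SE; limma adjusted p = 0.0274) and 0.53 ± 0.11 (SE; limma adjusted p = 0.00482) in Men1flf, Rbp2flf and Men1flf Rbp2flf RIP-Cre islets. In Men1flf RIP-Cre islets the E2F partner gene Tfdp2 (0.46 ± 0.13 (SE; limma adjusted p = 0.00785)) also rose, while Lin37 (-0.59 ± 0.13 (SE; limma adjusted p = 0.00293)), a subunit of the DREAM complex that represses cell cycle genes, and E2f4 (-0.43 ± 0.12 (SE; limma adjusted p = 0.00851)), its E2F, fell. E2f7 (-0.51 ± 0.13 (SE; limma adjusted p = 0.0267)), a repressor like E2f8, fell in Rbp2flf RIP-Cre islets, and Cks1b (0.66 ± 0.21 (SE; limma adjusted p = 0.0253)), a subunit of cyclin-dependent kinase complexes, rose in Men1flf Rbp2flf RIP-Cre islets.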

How the data were processed

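Total RNA of islets was labelled with biotin as single-stranded DNA and hybridised to Affymetrix arrays, per the labels' protocols. The authors deposited a log2 intensity for each of 35512 probe sets on 17 arrays. The log scale was read from the values. How the authors corrected background and scaled the arrays, and with which software, is not given in the sources used here. All array columns were used, and precision rests on how many arrays a group has. No array was a copy of another (smallest root mean square difference 0.357).

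Probe sets were named with the platform's gene table: 21789 named 1 gene, 1621 named several and 12102 were not in it. The probe set with the highest mean was kept per gene, which gave 19938 genes. Of the 49 replication genes, 3 had 2 probe sets (Pcna, Rpa3 and Tk1). Whether the kept one reads another copy of its gene was not tested. One limma 3.58.1 model of the 5 group means (lmFit, then eBayes; R 4.3.3) covered all 17 arrays and gave 7 comparisons, with p-values adjusted by Benjamini-Hochberg over all genes within each and a call at an adjusted p under 0.05. Groups came from the sample titles. The fit was tested on simulated data. Summaries and figures were made in Python 3.11.15.

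The members, the gene lists and the tests were chosen with earlier results of these data known. Values of each array are given for members with the highest or lowest moderated t of their role in a comparison with RIP-Cre and called somewhere, and for further called members and Rrm2, which were added after their values were seen. Of the other replication lists, up to 2 called genes at each end of the moderated t are named. Alternatives were cyclic loess, quantile normalization, the array median as a covariate, a filter on mean level at percentile 25, the repeat number as a block, trended and robust variances, only the arrays compared, wt and RIP-Cre pooled, the median of a gene's probe sets, and leaving out single arrays. The repeat numbers do not pair the arrays, as correlations of same-numbered arrays ran from -0.298 to 0.449 (median 0.011, 31 pairs).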

Additional observations from a re-analysis of the deposited data

Results flagged for a closer look

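The interaction of Men1flf and Rbp2flf for Rrm1 was -0.64 (limma adjusted p = 0.0489), and it drew attention because the test of the difference itself passed. The Rbp2flf effect was -0.20 among islets with Men1flf and 0.44 among islets without it. Rrm1 was higher than on any RIP-Cre array on 4 of 4 Men1flf Rbp2flf RIP-Cre arrays, 4 of 4 Rbp2flf RIP-Cre arrays and 3 of 3 Men1flf RIP-Cre arrays. Among the 17 members examined in the groups of 4 arrays (34 gene and group pairs), no array stood apart by Dixon's test. Other members whose arrays are printed above, Pole among them, were not examined in this way. Pole was 7.78 on Men1flf Rbp2flf RIP-Cre array 1, beside 7.46, 7.49 and 7.47 on the rest of that group.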

How the results depend on the processing

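With the array median as a covariate, limma called 0 replication genes in Men1flf RIP-Cre, Rbp2flf RIP-Cre and Men1flf Rbp2flf RIP-Cre against RIP-Cre. At an unadjusted limma p under 0.05 were 4, 5 and 15 of them, beside 3331, 2497 and 3693 of all genes. Calls over all genes numbered 396, 42 and 280 in place of 10660, 2672 and 6716. The same fit called 6 in Men1flf Rbp2flf RIP-Cre against Rbp2flf RIP-Cre (510 of all genes) and 0 in the interaction (20 of all genes). In the interaction, 4 of the 49 genes and 1516 of all genes were at an unadjusted limma p under 0.05. The Rbp2flf RIP-Cre count of 8 became 3 after cyclic loess, 3 after quantile normalization and 2 with only the arrays compared (1879, 2318 and 1080 of all genes). The count of 0 in Men1flf Rbp2flf RIP-Cre against Men1flf RIP-Cre became 1 after cyclic loess, with the percentile filter or with trended variances (463, 426 and 407 of all genes, beside 333), and the count of 2 against Rbp2flf RIP-Cre became 4 after cyclic loess and 1 with only the arrays compared (360 and 185 of all genes, beside 239). The interaction count of 1 became 0 after quantile normalization, 5 with the filter, 2 with trended variances, 2 without wt in the fit and 9 with wt and RIP-Cre pooled. With the repeat number as a replicate block it became 6. The interaction over all genes moved in the same settings, to 340, 1400 (of 14953 tested), 1198, 1375, 3256 and, with the block, 1933 calls, beside 675. The block kept every other count within 1.5 times (10, 7, 14, 0, 2 and 0). Leaving out each array in turn gave 8 (without RIP-Cre array 3 or Men1flf RIP-Cre array 1) to 11 calls in Men1flf RIP-Cre, 0 (without RIP-Cre array 3) to 8 in Rbp2flf RIP-Cre, 7 (without RIP-Cre array 3) to 16 in Men1flf Rbp2flf RIP-Cre, 0 on every occasion against Men1flf RIP-Cre (4 to 13 unadjusted), 0 (without Rbp2flf RIP-Cre array 1 or 2 or Men1flf Rbp2flf RIP-Cre array 1) to 5 (without Men1flf Rbp2flf RIP-Cre array 3) against Rbp2flf RIP-Cre and 0 to 4 (without RIP-Cre array 1 or Rbp2flf RIP-Cre array 3) in the interaction. Without RIP-Cre array 3, calls over all genes were 6174 in Men1flf RIP-Cre, 223 in Rbp2flf RIP-Cre and 2371 in Men1flf Rbp2flf RIP-Cre, and the interaction had 22 to 2783 over the arrays left out. Against Men1flf RIP-Cre, 1741 to 2876 of all genes were at an unadjusted limma p under 0.05 over the arrays left out. Rbp2flf RIP-Cre had 1 call without its array 1 or 2, and Men1flf Rbp2flf RIP-Cre had 9 without RIP-Cre array 1 or its own array 4. Leaving out wt 1, wt 3 and RIP-Cre 3 together, the 3 control arrays of highest median, an alternative chosen after seeing the data, gave 0 in Rbp2flf RIP-Cre, 7 in Men1flf Rbp2flf RIP-Cre, 1 in Men1flf Rbp2flf RIP-Cre against Men1flf RIP-Cre and 0 in the interaction.

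Of the 38 single-gene calls, 1 held under every alternative other than leaving out an array, 13 held without each array in turn, and 21 were lost without RIP-Cre array 3. Orc1 in Men1flf RIP-Cre reversed, at 0.0704 after cyclic loess and 0.0345 after quantile normalization. The cause of these changes was not tested. RIP-Cre against wt had 0 limma calls among the 49 genes under every alternative run. It had 0 to 4 of them at an unadjusted limma p under 0.05, beside 247 to 1073 of all genes. Over all genes it had 26 calls without wt array 3 and 107 without the 3 control arrays of highest median, all lower in RIP-Cre, and 0 under the other alternatives.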
